A study of Mus musculus with 8 samples.

Results

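The enzymes and carriers that take glucose through glycolysis, hand pyruvate to the mitochondria and run the tricarboxylic acid (TCA) cycle were examined in mouse islets, as a set of 38 genes out of the 21154 with a symbol on the array. The genes were chosen by name and function, at a time when earlier results from these arrays were known. The set holds 8 genes of upper glycolysis, 7 of lower glycolysis, 10 that handle pyruvate, 7 of the TCA cycle and 6 of the shuttles and anaplerotic reactions that link the cycle with the cytosol. Each gene was represented by its brightest probe, and all 38 had a probe that could be compared.

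Total RNA from hand-picked islets was measured on 1-colour arrays to ask how loss of CB1R, the cannabinoid receptor that Cnr1 encodes, from beta cells alters islet gene expression. All animals were male C57BL/6 mice on a standard diet, carried floxed Cnr1 on both alleles (Cnr1 flox/flox) and received tamoxifen. The 3 β-CB1R−/− mice also carried MIP-Cre/ERT, a tamoxifen-inducible Cre driven by the mouse insulin promoter, whereas their 4 β-CB1R+/+ littermates did not. No Cre-only islets were among the arrays, so the transgene and the deletion cannot be told apart. The labels of single samples name the genotype as CB1 KO or WT and mention the global knockout in the growth protocol, so the beta cell-specific genotype rests on the title and design of the series and its alleles on the study's methods. The age of these mice is not given in the sources used here.

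Values are background-subtracted intensities on the log2 scale relative to each array's 75th percentile, so a difference of 1 is a 2-fold difference in intensity. β-CB1R−/− mouse 2 had a pair of arrays, which were averaged. Between 33304 and 39988 of 55681 probes were well above background per array, and the number of arrays limits the precision. Cnr1 read −1.11, −0.77, −0.53 and −0.02 in the β-CB1R+/+ mice and −2.30, −3.13 and −2.28 in the β-CB1R−/− mice, with no overlap, a difference of −1.97 ± 0.33 (SE), exact permutation p = 0.0286 (the smallest p that 4 against 3 mice allow) and limma adjusted p = 0.193. Whether its probe lies inside the deleted part was not examined. All arrays shared 1 slide with the genotypes on opposite sides, and position on the slide cannot be separated from genotype. In whole islets, fewer cells of a type and less RNA per cell cannot be told apart.

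Beta cells sense glucose by metabolising it. Glucose is phosphorylated, broken down to pyruvate, and passed almost entirely to the mitochondria, since lactate dehydrogenase A and the monocarboxylate transporter that exports lactate are normally kept low in these cells. There pyruvate is either oxidised by the pyruvate dehydrogenase complex or carboxylated, and the resulting ATP closes the potassium channels that hold the membrane at rest. Several glycolytic enzymes and Pdk1 are also known targets of the hypoxia-inducible factors, which bind a core sequence of ACGTG or GCGTG.

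Only the ACGTG form was searched, on both strands, in RefSeq promoter windows of 300 bases. These ran from 250 before to 50 after each annotated start (build GRCm38.p6). At least 1 match was present in 15 of the 37 genes with a window (40.5%), against 5886 of 27025 genes (21.8%), and in 22 of their 59 windows (37.3%), against 6447 of 32851 windows (19.6%). Genes with several starts contribute overlapping windows; the 6 windows of the TCA cycle genes that hold a match all belong to 1 gene, Ogdh. CACGTG, which contains ACGTG and is the E-box read by MYC, was present in 4 of the 37 genes against 2187 of the 27025. The 250 bases before the start are shown for Hk2 and Pgk1, known targets of the hypoxia response that each held 2 matches, and for Pdk4, the gene that varied most between mice, which held none. Known targets need not hold a match in the window: Pdk1, Eno1 and Tpi1 held no ACGTG, and GCGTG was not searched. Capitals mark ACGTG or its reverse complement CACGT.
Hk2, hexokinase 2, chr6:82774455-82774704, minus strand: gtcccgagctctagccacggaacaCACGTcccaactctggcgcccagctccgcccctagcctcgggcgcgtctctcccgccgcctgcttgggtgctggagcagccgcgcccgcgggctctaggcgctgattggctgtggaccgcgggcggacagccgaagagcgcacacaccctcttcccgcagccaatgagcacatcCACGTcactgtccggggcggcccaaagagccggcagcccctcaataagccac
Pgk1, phosphoglycerate kinase 1, chrX:106186850-106187099, plus strand: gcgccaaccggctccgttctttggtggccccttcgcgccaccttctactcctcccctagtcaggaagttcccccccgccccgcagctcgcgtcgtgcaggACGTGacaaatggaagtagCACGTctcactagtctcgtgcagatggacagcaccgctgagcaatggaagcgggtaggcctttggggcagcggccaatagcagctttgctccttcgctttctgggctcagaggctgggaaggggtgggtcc
Pdk4, pyruvate dehydrogenase kinase 4, chr6:5496279-5496528, minus strand: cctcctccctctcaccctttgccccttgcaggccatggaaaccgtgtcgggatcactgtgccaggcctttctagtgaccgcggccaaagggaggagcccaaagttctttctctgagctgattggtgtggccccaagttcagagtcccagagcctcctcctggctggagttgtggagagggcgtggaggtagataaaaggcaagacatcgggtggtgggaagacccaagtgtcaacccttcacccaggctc
Counting from the start, the matches begin at −226 and −52 in Hk2 and at −150 and −131 in Pgk1. A match is a description of the letters in the window and was not tied to binding of any factor.

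Across the whole set, genotype made no difference that could be detected. Of the 38 genes, 19 had a higher mean in β-CB1R−/− islets and 19 a lower one, and the median log2 difference was 0.00, beside −0.04 over the brightest probes of all 16959 genes compared. No member passed an adjusted p of 0.05 (limma, lowest adjusted p = 0.999), where 0.11% of the 39165 compared probes did. None reached an unadjusted p under 0.05, either upward, where 1.67% of all compared probes did, or downward, where 1.92% did, and the methods' t-test also gave 0. On the brightest probe of no member were all β-CB1R−/− mice above all β-CB1R+/+ mice (2.16% of compared probes) or all below (1.96%). Of the 56 compared probes for the members, 1 separated the genotypes, a dimmer probe for Tpi1. The individual differences ran from −0.57 for Gpd2 to 0.41 for Pdk1.

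**Figure D1:**
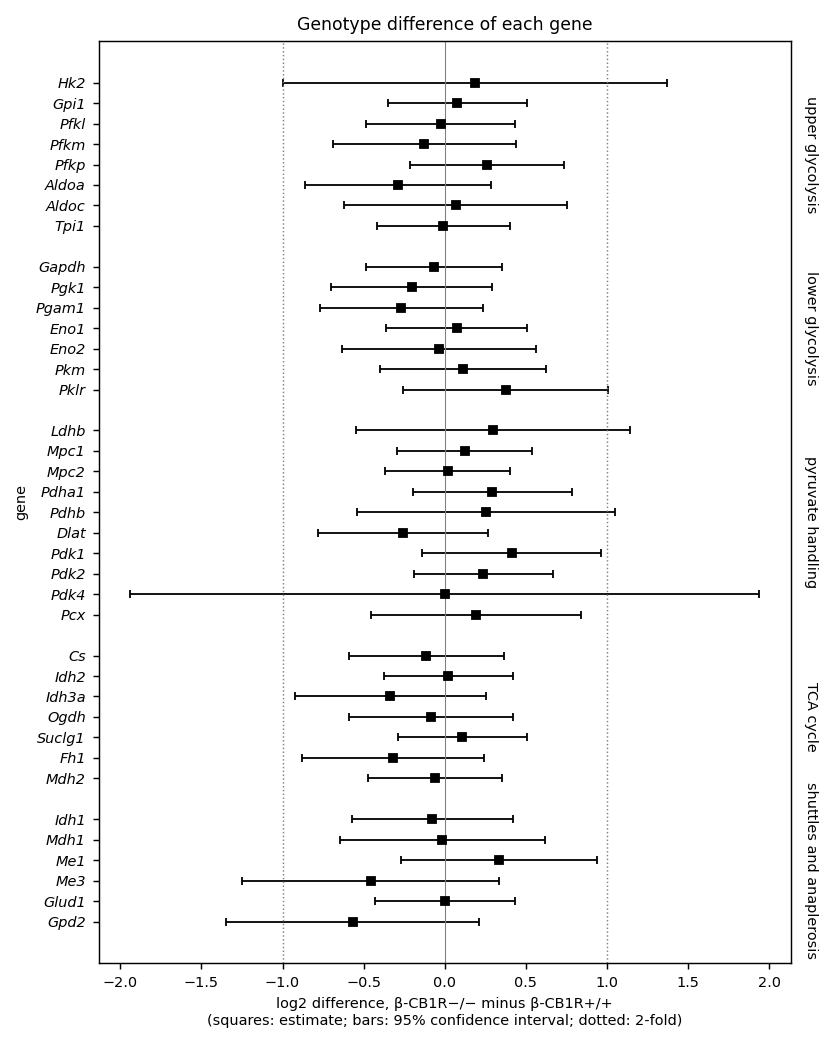
Log2 difference in intensity between genotypes (β-CB1R−/− minus β-CB1R+/+, x axis) for each of the 38 genes (y axis), grouped by stage; squares are estimates from 3 and 4 mice, bars are 95% confidence intervals and dotted lines mark a 2-fold difference either way. The 95% interval of every gene crosses 0, the estimates lie between −0.57 and 0.41, and the interval of Pdk4 is by far the widest.

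The intervals give the size of change these mice could have hidden. The 95% confidence interval of the difference lay within 2-fold either way for 31 of the 38 genes (81.6%), compared with 11346 of 16959 genes (66.9%), and within 1.5-fold for 12 (31.6%), compared with 18.8% of all genes. The genes whose interval went past 2-fold were Hk2, Pklr, Ldhb, Pdhb, Pdk4, Me3 and Gpd2. The members were also measured tightly: the median SD within a genotype was 0.25 against 0.33 over all genes, and the repeat arrays differed by a median of 0.06 against 0.10. Apart from Pklr, each member was well above background on all 8 arrays.

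**Figure D2:**
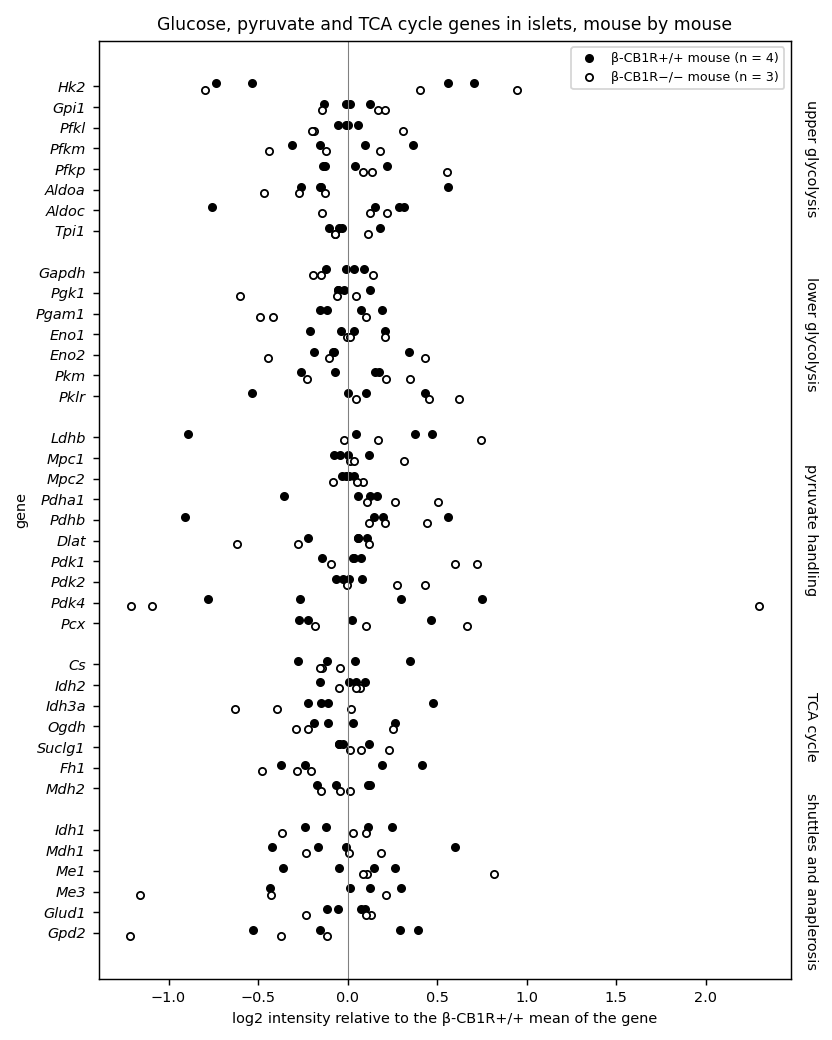
Log2 intensity of each gene's brightest probe in each mouse relative to the β-CB1R+/+ mean of that gene (x axis), by gene and stage (y axis); black circles are the 4 β-CB1R+/+ mice and white circles the 3 β-CB1R−/− mice. The circles of both genotypes intermingle in every row, and the spread is widest for Pdk4, where 1 β-CB1R−/− mouse lies far to the right.

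In upper glycolysis, 4 genes were higher and 4 lower in β-CB1R−/− islets, with a median difference of 0.03. These counts rested on single mice, as 7 were higher and 1 lower without β-CB1R−/− mouse 1 (median 0.064), and the median was −0.029 without β-CB1R−/− mouse 3. Hk2 encodes the high-affinity hexokinase that beta cells normally express little of. It read −2.04, −3.48, −3.28 and −2.18 in the β-CB1R+/+ mice and −2.34, −1.80 and −3.54 in the β-CB1R−/− mice, so that 4 mice lay between −2.34 and −1.80 and the other 3 between −3.54 and −3.28, with both genotypes in each group. The lower group was dim. On its arrays the dimmest signals well above background were −3.91 and −4.27 (β-CB1R+/+ mice 2 and 3) and −3.95 (β-CB1R−/− mouse 3). The genotype difference was 0.18 ± 0.51 (SE), exact permutation p = 0.80, and it was −0.20 without β-CB1R−/− mouse 2.

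Phosphofructokinase commits glucose carbon to glycolysis, and its 3 isozymes were all well above background on every array. Pfkm, the muscle type, read 2.13, 2.80, 2.53 and 2.28 in the β-CB1R+/+ mice and 2.00, 2.31 and 2.62 in the β-CB1R−/− mice, a difference of −0.13 ± 0.24 (SE). Pfkl, the liver type, differed by −0.03 ± 0.20 (SE), and its β-CB1R−/− values of −0.28, −0.30 and 0.21 spanned wider than its β-CB1R+/+ values of −0.09, −0.15, −0.11 and −0.04. Pfkp, the platelet type, had the largest difference of the family, 0.26 ± 0.21 (SE) (95% CI −0.21 to 0.74, exact permutation p = 0.20), but its second probe gave −0.03. No isozyme shift with genotype was detectable.

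Aldolase splits fructose 1,6-bisphosphate into triose phosphates. Aldoa, the widespread form, read 7.16, 7.87, 7.16 and 7.05 in the β-CB1R+/+ mice and 6.85, 7.04 and 7.18 in the β-CB1R−/− mice. The highest value belonged to a β-CB1R+/+ mouse and the other 6 overlapped, the difference being −0.29 ± 0.25 (SE) (95% CI −0.86 to 0.29, exact permutation p = 0.429). It was −0.10 without that mouse. Aldoc, the brain form, differed by 0.07 ± 0.30 (SE) and had 1 low β-CB1R+/+ value of 1.80 beside 3 between 2.71 and 2.87. Gpi1, which isomerises glucose 6-phosphate, and Tpi1, which interconverts the triose phosphates, differed by 0.08 ± 0.19 (SE) and −0.01 ± 0.18 (SE). A second, dimmer Tpi1 probe read 1.26, 1.20, 1.05 and 1.23 in the β-CB1R+/+ mice and 1.40, 1.42 and 1.45 in the β-CB1R−/− mice. On that probe the genotypes did not overlap, with a difference of 0.24 ± 0.17 (SE) and exact permutation p = 0.0286, and limma gave adjusted p = 0.999.

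In lower glycolysis 3 genes were higher and 4 lower, with a median difference of −0.04. That median was 0.11 without β-CB1R−/− mouse 1, −0.17 without β-CB1R−/− mouse 3 and 0.074 with the mean over each gene's probes. Gapdh, the triose phosphate dehydrogenase often used as a reference transcript, read 7.001, 7.05, 6.96 and 6.84 in the β-CB1R+/+ mice and 6.77, 6.81 and 7.11 in the β-CB1R−/− mice. The genotypes overlapped, and the difference was −0.07 ± 0.18 (SE) (95% CI −0.49 to 0.36, exact permutation p = 0.543), which bounds any change in this probe to under 1.5-fold either way. Gapdh had 7 compared probes, whose β-CB1R+/+ means spanned 5.45 log2 units although all are named for this gene. Gapdh has many processed pseudogenes, and whether a probe also reads them was not examined. Their genotype differences ran from −0.07 to 0.68, the last from the dimmest probe (0.68 ± 0.38 (SE)), and the mean over all 7 was 0.19. The sign of the Gapdh difference thus turned with the choice of probe, none of the 7 reached an unadjusted p of 0.05, and levels of different genes, each read by its own probe, are not set against each other here.

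**Figure D3:**
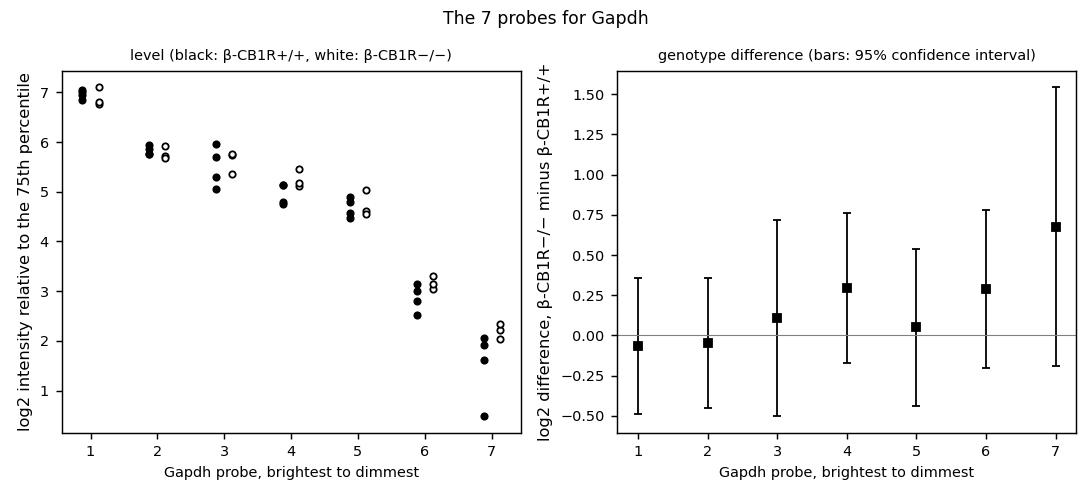
The 7 Gapdh probes in order of brightness (x axis): log2 intensity per mouse on the left, with β-CB1R+/+ mice in black and β-CB1R−/− mice in white, and the genotype difference with its 95% confidence interval on the right. The β-CB1R+/+ mean falls from 6.96 to 1.52 across probes of the same gene, and all 7 intervals include 0.

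Pgk1 and Pgam1, the kinase and mutase that follow Gapdh, had differences of −0.20 ± 0.21 (SE) and −0.27 ± 0.22 (SE). Pgk1 was even among the β-CB1R+/+ mice (4.08, 3.93, 3.90 and 3.90), whereas β-CB1R−/− mouse 2 read 3.35, low on both of its repeat arrays (3.30 and 3.40). Without this mouse the Pgk1 difference was −0.00. The enolases did not separate the genotypes either: Eno1, the general form, differed by 0.07 ± 0.19 (SE) and Eno2, the neuronal and endocrine form, by −0.04 ± 0.26 (SE).

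Pyruvate kinase makes pyruvate and ATP from phosphoenolpyruvate. Pkm, whose splice forms were not told apart here, read 4.50, 4.75, 4.73 and 4.31 in the β-CB1R+/+ mice and 4.35, 4.79 and 4.92 in the β-CB1R−/− mice, a difference of 0.11 ± 0.22 (SE) (95% CI −0.40 to 0.62, exact permutation p = 0.543). Pklr, the liver and red cell gene, was the one member not well above background on every array, passing on 3 of 4 β-CB1R+/+ arrays and on all 4 β-CB1R−/− arrays. It read −2.64, −2.74, −2.31 and −3.28 in the β-CB1R+/+ mice and −2.12, −2.29 and −2.69 in the β-CB1R−/− mice, and the difference was 0.38 ± 0.27 (SE) (95% CI −0.25 to 1.01, exact permutation p = 0.20). The lowest β-CB1R−/− value lay within the β-CB1R+/+ range, so the groups overlapped.

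The genes that handle pyruvate leaned upward as a group, in 8 of 10, where 44.3% of all genes were higher, with a median difference of 0.22 beside −0.04 over all genes. Under the scaling and background alternatives 7 to 9 of the 10 were higher, and without β-CB1R+/+ mouse 1 the median difference was 0.11. The median of the 10 genes, each centred on its mean over mice, was −0.11, −0.05, −0.03 and −0.05 in the β-CB1R+/+ mice and 0.09, 0.03 and −0.02 in the β-CB1R−/− mice, so the medians of the genotypes did not overlap although every single gene did on its brightest probe. The nearest mice, β-CB1R−/− mouse 3 and β-CB1R+/+ mouse 3, were at −0.017 and −0.031. This is a description of chosen genes and carries no test.

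The mitochondrial pyruvate carrier, a dimer of MPC1 and MPC2, was the steadiest component. Mpc2 read 3.18, 3.22, 3.15 and 3.19 in the β-CB1R+/+ mice and 3.27, 3.24 and 3.11 in the β-CB1R−/− mice, with the smallest SD within a genotype of any member (0.06). Its difference was 0.02 ± 0.17 (SE), a fold change of 1.01 with a 95% CI of 0.776 to 1.32. Mpc1 differed by 0.12 ± 0.18 (SE) on its brightest probe and by 0.13 on the other.

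The pyruvate dehydrogenase complex oxidises pyruvate to acetyl-CoA. Pdha1, its catalytic alpha subunit, read 0.84, 1.36, 1.25 and 1.32 in the β-CB1R+/+ mice and 1.70, 1.46 and 1.30 in the β-CB1R−/− mice, a difference of 0.29 ± 0.21 (SE) (95% CI −0.20 to 0.78, exact permutation p = 0.171). Pdhb, the beta subunit, differed by 0.26 ± 0.34 (SE) with 1 β-CB1R+/+ mouse at 3.24 and the other 6 mice between 4.26 and 4.71, and its second probe gave −0.11. Dlat, the acetyltransferase core, leaned the other way at −0.26 ± 0.23 (SE). The 3 subunits therefore showed no common direction.

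The pyruvate dehydrogenase kinases phosphorylate the alpha subunit and switch the complex off. Pdk1 read 0.07, 0.08, −0.10 and 0.12 in the β-CB1R+/+ mice and 0.64, 0.77 and −0.05 in the β-CB1R−/− mice. The first 2 β-CB1R−/− mice stood above all β-CB1R+/+ mice and the third lay among them; the repeat arrays of β-CB1R−/− mouse 2 gave 0.78 and 0.75. The difference was 0.41 ± 0.24 (SE) (95% CI −0.14 to 0.96, exact permutation p = 0.171), and it was 0.66 without β-CB1R−/− mouse 3 (unadjusted limma p of 0.00912) and 0.26 without β-CB1R−/− mouse 2. Pdk2 had the same arrangement, with 0.96, 1.00, 1.11 and 1.04 against 1.46, 1.30 and 1.03, a difference of 0.24 ± 0.19 (SE) and exact permutation p = 0.0857.

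Pdk4, which responds to fasting and fatty acids, was the most variable member, with an SD within a genotype of 1.36. It read 1.24, 0.17, 1.69 and 0.68 in the β-CB1R+/+ mice and −0.26, 3.24 and −0.15 in the β-CB1R−/− mice. β-CB1R−/− mouse 2 was the highest of all mice, its repeat arrays giving 3.23 and 3.26, while the other 2 β-CB1R−/− mice were the lowest. The genotype difference was −0.00 ± 0.84 (SE), a fold change with a 95% CI of 0.261 to 3.83, and without β-CB1R−/− mouse 2 it was −1.15 with an unadjusted limma p of 0.0337. A difference in Pdk4 of either sign was therefore not detectable with these mice.

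Other fates of pyruvate are lactate and oxaloacetate. Ldhb, the heart-type lactate dehydrogenase, differed by 0.30 ± 0.37 (SE) with values of 1.83, 0.89, 2.16 and 2.25 in the β-CB1R+/+ mice and 1.95, 1.76 and 2.53 in the β-CB1R−/− mice. It was 0.00 without the low β-CB1R+/+ mouse. Pcx, pyruvate carboxylase, which is abundant in beta cells, differed by 0.19 ± 0.28 (SE) (95% CI −0.45 to 0.84) with overlapping groups.

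The TCA cycle was the most tightly bounded stage. All 7 genes had a 95% confidence interval within 2-fold, 2 were higher and 5 lower in β-CB1R−/− islets, and the median difference was −0.09; 1 or 2 of the 7 were higher under the scaling and background alternatives, and 4 without β-CB1R+/+ mouse 2, where the median was 0.0020. The largest estimates belonged to Idh3a, the catalytic subunit of the NAD-dependent isocitrate dehydrogenase, at −0.34 ± 0.26 (SE), and to Fh1, fumarase, at −0.32 ± 0.24 (SE). Idh3a read 2.45, 3.04, 2.34 and 2.41 in the β-CB1R+/+ mice and 2.17, 1.93 and 2.58 in the β-CB1R−/− mice, where 1 β-CB1R+/+ mouse was the highest and β-CB1R−/− mouse 2 the lowest (95% CI −0.92 to 0.25, exact permutation p = 0.257). Fh1 read 4.63, 4.85, 4.07 and 4.20 in the β-CB1R+/+ mice and 4.15, 3.96 and 4.23 in the β-CB1R−/− mice, with all β-CB1R−/− values inside or just below the β-CB1R+/+ range (95% CI −0.88 to 0.24, exact permutation p = 0.257). Without β-CB1R+/+ mouse 2 these differences were −0.18 and −0.18.

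The other cycle enzymes lay close to 0. Citrate synthase (Cs), which condenses acetyl-CoA with oxaloacetate, differed by −0.11 ± 0.21 (SE). Ogdh, the first component of the oxoglutarate dehydrogenase complex, differed by −0.09 ± 0.22 (SE), with a range of −0.09 to 0.06 over its 3 probes. Suclg1, the alpha subunit of succinyl-CoA ligase, and Mdh2, mitochondrial malate dehydrogenase, differed by 0.11 ± 0.17 (SE) and −0.06 ± 0.18 (SE). Idh2, the NADP-dependent mitochondrial isocitrate dehydrogenase, read 5.60, 5.80, 5.85 and 5.76 in the β-CB1R+/+ mice and 5.82, 5.71 and 5.80 in the β-CB1R−/− mice, a difference of 0.02 ± 0.17 (SE) (95% CI −0.38 to 0.42).

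Among shuttle and anaplerosis genes 2 were higher and 4 lower, with a median difference of −0.05 (0.0085 without β-CB1R−/− mouse 2 and −0.12 without β-CB1R−/− mouse 3), and this stage held the lowest estimate of the set. Gpd2, the mitochondrial glycerol-3-phosphate dehydrogenase that carries cytosolic reducing equivalents to the respiratory chain and is characteristically high in beta cells, read 1.62, 2.17, 2.06 and 1.25 in the β-CB1R+/+ mice and 1.40, 0.56 and 1.66 in the β-CB1R−/− mice. The lowest value was β-CB1R−/− mouse 2, on both repeat arrays (0.52 and 0.60), and the other 2 β-CB1R−/− mice lay inside the β-CB1R+/+ range. The means were 1.77 ± 0.42 (SD, n = 4) against 1.21 ± 0.57 (SD, n = 3), a difference of −0.57 ± 0.34 (SE) (95% CI −1.35 to 0.21, exact permutation p = 0.229). It was −0.24 without β-CB1R−/− mouse 2 and −0.79 without β-CB1R−/− mouse 3.

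Malic enzymes turn malate into pyruvate and NADPH, and the 2 in the set leaned in opposite directions. Me1, the cytosolic enzyme, differed by 0.34 ± 0.26 (SE), and its 3 probes gave 0.33 to 0.37. Without β-CB1R−/− mouse 3, the highest at 2.21, it was 0.095. Me3, a mitochondrial enzyme, read 0.65, 0.37, −0.08 and 0.48 in the β-CB1R+/+ mice and −0.07, −0.80 and 0.57 in the β-CB1R−/− mice, a difference of −0.46 ± 0.34 (SE) (95% CI −1.25 to 0.33, exact permutation p = 0.314), with −0.42 from its second compared probe; a further Me3 probe was not well above background on any array. The Me3 difference was −0.79 without β-CB1R−/− mouse 3 (unadjusted limma p of 0.0363) and −0.11 without β-CB1R−/− mouse 2. Mdh1, the cytosolic arm of the malate-aspartate shuttle, Idh1, cytosolic isocitrate dehydrogenase, and Glud1, glutamate dehydrogenase, differed by −0.01 ± 0.27 (SE), −0.08 ± 0.22 (SE) and 0.00 ± 0.19 (SE).

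A further 61 compared genes of the same pathways, from a list of 62 glucose transporters, isozymes, regulators, remaining subunits and pentose phosphate enzymes, were looked at beside the members. Of these 24 were higher and 37 lower, with a median of −0.06, and none passed an adjusted p of 0.05. At an unadjusted p under 0.05, 2 were higher (3.28%, against 1.67% of all compared probes) and 3 lower (4.92%, against 1.92%), and 3 were higher without overlap (4.92%, against 2.16%).

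Regulators of the committed steps were also among them. Pfkfb4 and Pfkfb2 make fructose 2,6-bisphosphate, the activator of phosphofructokinase. Pfkfb4 read −0.25, 0.09, −0.39 and −0.03 in the β-CB1R+/+ mice and 0.16, 0.41 and 0.98 in the β-CB1R−/− mice, without overlap (0.66 ± 0.25 (SE), exact permutation p = 0.0286). Pfkfb2 read 1.68, 2.35, 1.93 and 1.92 in the β-CB1R+/+ mice and 1.28, 1.11 and 1.73 in the β-CB1R−/− mice, where 1 β-CB1R−/− value fell among the β-CB1R+/+ ones (−0.60 ± 0.24 (SE), exact permutation p = 0.0857). Pdp1, the phosphatase that reactivates pyruvate dehydrogenase and so opposes the Pdk kinases, read 0.18, 0.86, 0.28 and 0.48 in the β-CB1R+/+ mice and −0.46, −0.76 and 0.26 in the β-CB1R−/− mice (−0.77 ± 0.29 (SE), exact permutation p = 0.0571). Slc16a7, a monocarboxylate transporter, differed by −0.57 ± 0.23 (SE), and Adpgk, which phosphorylates glucose with ADP in place of ATP, by 0.30 ± 0.18 (SE), the latter without overlap. Each had an adjusted p of 0.999 in limma. Of 16 compared genes of the hypoxia response outside the members, 8 were higher and 8 lower, with a median of 0.00, and 1 (6.25%, against 1.92% of all compared probes) was lower at an unadjusted p under 0.05. This was P4ha2, a collagen prolyl hydroxylase, named after its values were seen, which was also lower without overlap (as were 1.96% of all probes), at a difference of −0.76 ± 0.26 (SE) with exact permutation p = 0.0286 and limma adjusted p = 0.999.

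On its brightest probe no member separated the genotypes, but many set the same mice apart, a pattern noticed after the values were seen and given without a test. β-CB1R+/+ mouse 2 had the highest value of all 7 mice for 13 members and β-CB1R−/− mouse 3 for 11, and these mice were the 2 highest for 14 of the 38 members (36.8%), against 3356 of the 16944 genes with a value in every mouse (19.8%). The 14 were Pfkm, Aldoa, Tpi1, Gapdh, Pgam1, Eno1, Eno2, Pdhb, Dlat, Pcx, Idh3a, Ogdh, Mdh1 and Me1. They were the 2 lowest mice for 1 member, Hk2 (2.63%), against 2209 genes (13%).

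Centred on each gene's mean over mice, the median of the 15 glycolytic members was −0.02, 0.13, −0.00 and −0.10 in the β-CB1R+/+ mice and −0.17, −0.07 and 0.17 in the β-CB1R−/− mice. The glycolytic median was thus highest in β-CB1R+/+ mouse 2 and β-CB1R−/− mouse 3. Ldha, the lactate dehydrogenase that beta cells normally repress, ran the other way, with 3.81, 2.81, 3.06 and 3.92 in the β-CB1R+/+ mice and 4.36, 4.16 and 2.87 in the β-CB1R−/− mice, and its genotype difference was 0.39 ± 0.43 (SE) (exact permutation p = 0.40). Hk2 followed Ldha, both being low in β-CB1R+/+ mice 2 and 3 and β-CB1R−/− mouse 3. The glycolytic median was also set against the brightest compared probe of every other gene with a symbol. Those most like it across the 7 mice were Alg2 (r = 0.995), Eme2 (r = 0.991), Taz (r = 0.990), Abhd2 (r = 0.989) and Elovl2 (r = 0.986). These Pearson coefficients are the highest of that search and are given as a description only.

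**Figure D4:**
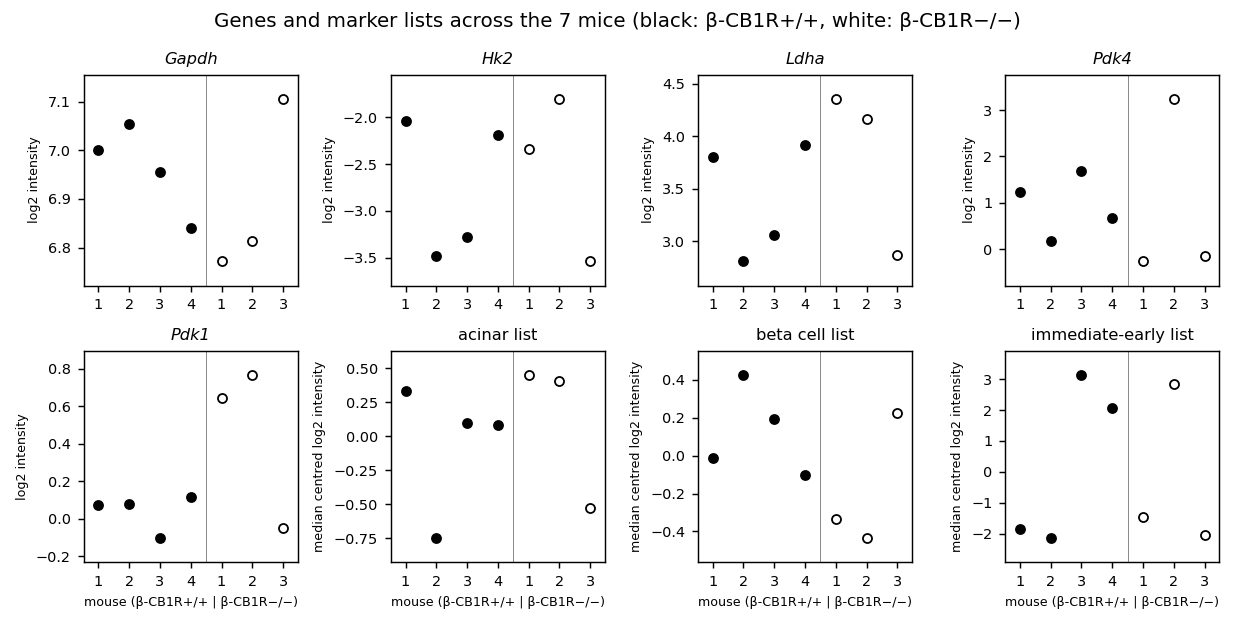
Log2 intensity of Gapdh, Hk2, Ldha, Pdk4 and Pdk1, and the median centred log2 intensity of the acinar, beta cell and immediate-early lists (y axes), in each of the 7 mice (x axis), drawn in black for β-CB1R+/+ and in white for β-CB1R−/−. Hk2, Ldha and the acinar list are low in β-CB1R+/+ mouse 2 and β-CB1R−/− mouse 3, where Gapdh and the beta cell list are at their highest.

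Markers of other cells and of handling also varied between these mice, and their part in the result was not tested. The median of 16 acinar markers, all well above background on all 8 arrays, was 0.33, −0.74, 0.10 and 0.08 in the β-CB1R+/+ mice and 0.45, 0.40 and −0.53 in the β-CB1R−/− mice. That of 10 beta cell markers, likewise all well above background, was −0.01, 0.43, 0.19 and −0.10 against −0.33, −0.43 and 0.23. β-CB1R+/+ mouse 2 and β-CB1R−/− mouse 3 thus had the lowest acinar and the highest beta cell medians. The beta cell list was split, however, as seen after its values were read. G6pc2, Mafa and Pdx1 were highest in these mice. β-CB1R−/− mouse 3 was instead the lowest of all mice for Ins1 (10.41), Ins2 (9.71) and Iapp (9.31). β-CB1R+/+ mouse 2 was next lowest for Ins2 (9.89) and Iapp (9.55), but not for Ins1 (10.85). Between genotypes, 15 of the 16 acinar markers were higher in β-CB1R−/− islets (median 0.15) and 9 of the 10 beta cell markers lower (median −0.17); alpha cell markers were lower in 4 of 5 (median −0.59), 2 of them at an unadjusted p under 0.05 (40%, against 1.92% of all compared probes) and 1 of these without overlap (20%, against 1.96%). Delta cell markers were lower in 2 of 2 (median −0.36) and macrophage markers higher in 8 of 8 (median 0.40), 1 of them, C1qb, without overlap (12.5%, against 2.16%), and no marker passed an adjusted p of 0.05. The median of 7 stellate cell and fibroblast markers was −0.94, −1.88, −0.78 and 2.04 in the β-CB1R+/+ mice and 0.53, 1.00 and 0.28 in the β-CB1R−/− mice, so that β-CB1R+/+ mouse 4 stood above every β-CB1R−/− mouse and the other β-CB1R+/+ mice below. Of these markers 5 were well above background on all 8 arrays, while Pdgfra was so on 1 of 4 β-CB1R+/+ arrays and Lum on 2 of 4. Duct markers ran from −0.97 to 0.65 in the β-CB1R+/+ mice and from −0.17 to 0.56 in the β-CB1R−/− mice. The 8 immediate-early genes, which respond to islet handling, were high in β-CB1R+/+ mice 3 and 4 (3.13 and 2.06) and β-CB1R−/− mouse 2 (2.84) and between −2.13 and −1.46 in the other 4. Pdk4 was highest in β-CB1R−/− mouse 2 and next in β-CB1R+/+ mouse 3, both of this high group, but was 0.68 in β-CB1R+/+ mouse 4 and 1.24 in β-CB1R+/+ mouse 1.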

How the data were processed

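Islet RNA of 4 β-CB1R+/+ and 3 β-CB1R−/− mice was hybridised to 8 arrays on 1 slide. The authors deposited the spot intensity from Feature Extraction 11.5.1.1, with the background subtracted but no scaling across arrays, together with a Z score per spot. The deposited score matched the standardised log10 intensity to within 0.00503. Intensities were put on the log2 scale relative to each array's 75th percentile, outlier spots were left out, spots of a probe and the repeat arrays were averaged, and the 39165 probes that passed the scanner's well-above-background flag in 3 or more of 7 mice were compared by limma 3.58.1 in R 4.3.3. Two-sided p-values were adjusted over all of them (Benjamini-Hochberg, threshold 0.05). Single genes also had a two-sided exact permutation test over the 35 assignments of mice. The labels do not say whether replicates were bred or prepared apart, so p-values measure the spread between these samples. Probes were named through RefSeq accessions (28026 of 55681 matched); the arrays' header names another build than GRCm38.p6. The pipeline was tested on simulated data. Named were all members, Cnr1, other pathway genes at an unadjusted p under 0.05 or without overlap, and the 5 probes most like the glycolytic median; Ldha, chosen after its values were seen, and marker lists are given beside members, and 1 gene that the rule selects is not reported here. Members, lists and tests were chosen with earlier results of these data known. The alternatives were the deposited scores, quantile normalisation, a normexp background, the probe filter, 1 repeat array alone, the mean over probes, an intensity trend, the methods' t-test, the replicate number as a block and each mouse left out.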

Additional observations from a re-analysis of the deposited data

Results flagged for a closer look

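Among the 38 members, 5 had 1 β-CB1R+/+ mouse that stood apart from the other 3 by Dixon's criterion, where chance gives about 1.9 of 38 such groups. β-CB1R+/+ mouse 2 was high for Aldoa (7.87, the others 7.05 to 7.16) and for Idh3a (3.04, the others 2.34 to 2.45). β-CB1R+/+ mouse 1 was low for Aldoc (1.80, the others 2.71 to 2.87) and high for Suclg1 (3.74, the others 3.57 to 3.60). β-CB1R+/+ mouse 4 was low for Dlat (0.61, the others 0.89 to 0.94). All are log2 intensities relative to the array's 75th percentile.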

How the results depend on the processing

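No member passed an adjusted p of 0.05 under any alternative run. The probes past that threshold numbered 43 in the comparison above. They numbered 23 with no filter on dim probes and 24 among probes well above background on all arrays. The methods' t-test gave 0 (1412 at an unadjusted p under 0.05). With the replicate number as a block the count was also 0 (1714 unadjusted), in a fit that left out β-CB1R+/+ mouse 4. Leaving out each mouse in turn gave 0 to 42 such probes: 22, 15, 5 and 19 without β-CB1R+/+ mice 1 to 4, and 42, 0 and 5 without β-CB1R−/− mice 1 to 3. The number of members at an unadjusted p under 0.05 ranged from 0 to 1 in each direction: Pdk4 lower without β-CB1R−/− mouse 2, and Pdk1 higher and Me3 lower without β-CB1R−/− mouse 3. The cause was not tested. Deviations of same-numbered mice from their genotype means correlated at 0.554, −0.386 and −0.079 over 28180 probes. Those of differently numbered mice ran from −0.484 to 0.636. Such correlations cannot show whether the replicate numbers stand for pairs in breeding or preparation, which the labels do not say. The block changed no call among the members.

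Differences near 0 changed sign. With the first repeat array alone Tpi1 gave 0.000483 and Glud1 −0.000281, and with the second alone Pfkl gave 0.0040, Pdk4 0.0027 and Mdh1 0.0077. In the deposited Z scores Mpc2, Idh2 and Glud1 gave −0.0011, −0.0067 and −0.010 SD units. The normexp background gave 0.019 for Pdk4, 0.037 for Cs, −0.029 for Idh2 and 0.14 for Mdh1. It was planned on mean spot intensities, which were not in the files used here, so medians were used in their place (offset 50), which was decided after seeing the data. Quantile normalisation gave 0.028 for Tpi1, 0.0035 for Pdk4 and −0.037 for Idh2, and the mean over a gene's probes gave 0.12 for Tpi1 and 0.19 for Gapdh. Leaving out each mouse in turn moved Hk2 from −0.20 to 0.67, Pfkl from −0.19 to 0.061, Pfkm from −0.28 to 0.031, Aldoc from −0.18 to 0.17, Tpi1 from −0.070 to 0.053, Eno2 from −0.27 to 0.16, Pkm from −0.0073 to 0.28, Mpc2 from −0.014 to 0.070, Pdhb from −0.045 to 0.44, Pdk4 from −1.15 to 0.60, Pcx from −0.041 to 0.38, Cs from −0.21 to 0.0020, Idh2 from −0.029 to 0.057, Ogdh from −0.26 to 0.016, Idh1 from −0.17 to 0.067, Mdh1 from −0.16 to 0.19 and Glud1 from −0.064 to 0.12. The other 21 members kept their direction in these runs, but the difference of each of the 38 moved by over 1.5 times when at least 1 mouse was left out. Dim probes have the least signal over background, and among the members this concerns Hk2 and Pklr.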
